A study of Mus musculus with 2 samples.

Results

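Complement is a cascade of plasma proteases and binding proteins that tags and lyses cells. The classical pathway starts with the C1 complex, in which C1q binds a target and the proteases C1r and C1s are activated. C1s cleaves C4 and C2, and the lectin and alternative pathways converge with it on the cleavage of C3. C1 inhibitor acts in the fluid phase, and CD55, CD59 and, in rodents, Crry protect host cell surfaces. The liver makes most of the plasma proteins, and stromal cells can make several components locally.

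The 9 genes studied were chosen by name: the components C1ra, C1s1, C4b, C3 and Cfb, the regulators Serping1, Cd55 and Cd59a, and the C1q-binding protein gene C1qbp. The choice was made with earlier results of these data known. All 9 were found in the files, among 25948 named genes and unnamed loci, 19305 of them named. RNA was sequenced from mesenchymal stem/progenitor cells (MSCs) from bone marrow, cultured in DMEM with FBS. The donors were CD-1 mice, 3 months old. There were 2 libraries, 1 from PPARg-deficient cells labelled PPAR KO and 1 from PPARg-floxed cells labelled PPAR-flox. PPARg is the nuclear receptor that drives fat cell formation, and a floxed allele carries loxP sites and stays intact until a recombinase acts on it. The sources used here do not say which recombinase made the deficient cells, how many animals were pooled or how the cells were purified. The comparison asks how expression differs when PPARg is missing. With 1 library per genotype no difference has a replicate check, no p-value could be computed, and genotype cannot be told apart from culture or library.

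Pparg itself was at 1.39 FPKM in deficient cells and 6.86 FPKM in floxed cells. FPKM scales the fragments on a transcript to its length and to the total of its library. Of 12 stromal markers 9 reached 1 FPKM in both libraries, whereas Eng, Thy1 and Lepr did not. The list summed to 1481 FPKM in deficient cells and 1029 FPKM in floxed cells. Most of that sum was Ly6a, at 841 FPKM in deficient cells and 530 FPKM in floxed cells. Of the 9, Nt5e and Alcam were listed lower in deficient cells and the others higher. Of 14 leukocyte and macrophage markers 3 reached 1 FPKM in deficient cells and 2 in floxed cells, and the list summed to 34.8 FPKM in deficient cells and 7.09 FPKM in floxed cells. Most of that difference was Lyz2, at 19.5 FPKM in deficient cells and 0.26 FPKM in floxed cells. The part of these markers in the results below was not tested. Of the 14 leukocyte and macrophage markers, 6 were listed at 0 in both: Ptprc, Adgre1, Itgam, Fcgr1, Spi1 and Tyrobp. The others under 1 FPKM in both were Csf1r, Aif1, Mrc1 and Laptm5, listed higher in deficient cells, and Fcer1g, listed higher in floxed cells. Of 6 endothelial markers 0 reached 1 FPKM, and they summed to 0.265 FPKM in deficient cells and 0.0211 FPKM in floxed cells. Read bases over all transcripts summed to 1728 megabases in deficient cells and 1383 megabases in floxed cells. How many fragments lie behind a value is not known. The median of 10747 kept genes and loci was 0.86 higher on the log2 scale in the deficient library (1.81-fold). Log2 folds below are therefore relative to that median unless given as deposited, and FPKM values are as deposited. For the 9 stromal markers that reached 1 FPKM, the median log2 fold was -0.54 on that scale and 0.32 as deposited.

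These cells had RNA for the C1 proteases, for C1 inhibitor and for the lysis inhibitor CD59, and almost none for C3, C4, factor B or CD55. Of the 9 genes 5 passed the filter of 1 FPKM in at least 1 library, and each of the 5 passed it in both. Relative to the median, C1s1 and Serping1 were lower by 2-fold or more in deficient cells, and 0 were higher by 2-fold or more. The C1s1 sum includes joined transcripts, described below, that held 16.7% of it in deficient cells and 36.5% in floxed cells. Without them its relative log2 fold was -0.93, short of 2-fold. As a background, 11.8% of all kept genes and loci were lower by that much and 10.3% higher. As deposited, the picture turned: C1ra, Cd59a and C1qbp were higher by 2-fold or more, and 0 were lower by that much. On that scale 41.9% of kept genes and loci were higher by that much and 4.63% lower. The Cd59a sum includes a joined transcript, described below, that held 43.6% of it in deficient cells and 2.06% in floxed cells. The median log2 fold of the 5 genes was 0.34 relative to the median of all kept genes and loci, and as deposited it was 1.19, against 0.86 for all. In bulk RNA, fewer cells of a type and less RNA per cell cannot be told apart.

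**Figure D1:**
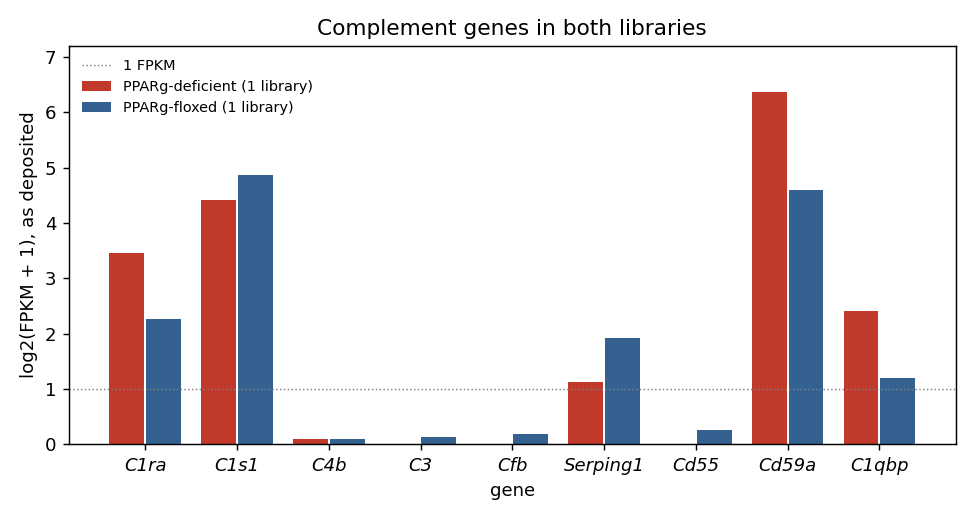
Bars give log2(FPKM + 1), as deposited, of the 9 complement genes in the PPARg-deficient library (red, left of each pair) and the PPARg-floxed library (blue, right), 1 library each, with a dotted line at 1 FPKM. C4b, C3, Cfb and Cd55 stay under the line in both libraries, C1s1 and Serping1 are lower in the deficient library, and C1ra, Cd59a and C1qbp are higher there.

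Among the genes studied, the proteases of the C1 complex were the best expressed of the components. C1ra encodes C1r, which cleaves and activates C1s. It lay on chromosome 6 from 124462639 to 124473458 (mm9), on the plus strand, as 1 transcript of 11 exons. C1ra was at 9.96 FPKM in deficient cells (deposited bounds 8.67 to 11.3) and 3.79 FPKM in floxed cells (2.98 to 4.60). These bounds did not overlap and describe only the estimate within each library. The log2 fold was 1.19 as deposited and 0.34 relative to the median, and 68.2% of kept genes and loci had a lower fold. C1ra was thus higher as deposited, and within 2-fold once centred.

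C1s1 encodes C1s, the protease that cleaves C4 and C2. It is the tail-to-tail neighbour of C1ra, 6903 bases away on the minus strand, from 124480362 to 124492377. C1s1 was at 20.4 FPKM in deficient cells and 28.1 FPKM in floxed cells, summed over 4 transcripts. The log2 fold was -0.45 as deposited and -1.30 relative to the median, and 8.3% of kept genes and loci had a lower fold. As deposited, the sums of the neighbouring genes thus differed in opposite directions. The C1s1 transcripts that matched the annotation whole were nearly level as deposited, at 17.0 FPKM in deficient cells and 17.9 FPKM in floxed cells. Most of the difference in the C1s1 sum lay in joined transcripts, described below. C1s1 RNA stood to C1ra RNA, per length, as 2.05 to 1 in deficient cells and as 7.42 to 1 in floxed cells. That ratio does not depend on any scaling between the libraries. Counting only the C1s1 transcripts that matched the annotation whole, it was 1.71 in deficient cells and 4.72 in floxed cells.

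The transcripts of C1s1 differed in where they began. The annotation has a pair of starts 38 bases apart, and the deposited transcripts have the same spacing. The transcript from the upstream start, at 124492377, was at 10.1 FPKM in deficient cells (7.62 to 12.6) and 17.9 FPKM in floxed cells (15.9 to 19.8). The transcript from the downstream start, at 124492339, was at 6.89 FPKM in the deficient library (5.58 to 8.21), and in the floxed library its upper bound was 0.08 FPKM. The downstream start therefore held 40.6% of the RNA from both whole-matched transcripts in the deficient library and next to none in the floxed library. Their first exons also end at different places. All other exons are shared, so the split between them rests on reads over the first exon and its junction.

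The promoters of both proteases and of Cd59a are shown because C1s1 has its pair of starts there, C1ra is its neighbour, and Cd59a had the highest level of the 9 genes in the deficient library. All are RefSeq windows on GRCm38.p6, read 5′ to 3′ on the gene's strand, from 250 bases before to 50 after the start. In C1s1, at chr6:124542310-124542609 on the minus strand, capitals mark the 38 bases from the upstream start up to the downstream start. In C1ra, at chr6:124512371-124512670 on the plus strand, capitals mark motif matches after the start. In Cd59a, at chr2:104095551-104095850 on the plus strand, capitals mark a motif match at position -187 from the start. A joined transcript counted under Cd59a, described below, begins upstream at Cd59b, so this window does not cover its start.
C1s1: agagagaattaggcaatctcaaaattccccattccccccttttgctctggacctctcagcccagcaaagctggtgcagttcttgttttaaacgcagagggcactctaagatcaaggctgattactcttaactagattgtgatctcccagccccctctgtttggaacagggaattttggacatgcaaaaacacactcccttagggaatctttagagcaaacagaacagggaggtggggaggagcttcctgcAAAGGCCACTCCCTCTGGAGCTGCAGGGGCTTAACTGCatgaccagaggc
C1ra: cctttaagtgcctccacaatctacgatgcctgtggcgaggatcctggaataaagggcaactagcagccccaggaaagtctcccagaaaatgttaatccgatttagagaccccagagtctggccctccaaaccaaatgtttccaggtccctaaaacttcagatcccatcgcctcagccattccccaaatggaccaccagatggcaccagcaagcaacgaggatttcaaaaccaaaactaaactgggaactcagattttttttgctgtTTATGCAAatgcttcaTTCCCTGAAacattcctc
Cd59a: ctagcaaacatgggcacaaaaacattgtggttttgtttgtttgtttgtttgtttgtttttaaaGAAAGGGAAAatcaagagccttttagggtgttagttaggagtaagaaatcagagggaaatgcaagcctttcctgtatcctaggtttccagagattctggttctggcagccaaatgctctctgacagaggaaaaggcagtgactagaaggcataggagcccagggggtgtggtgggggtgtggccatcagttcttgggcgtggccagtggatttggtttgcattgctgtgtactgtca

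Of the 9 genes C3, C1ra, C1s1, Cd55, Cd59a and C1qbp matched this table, with 7 windows, since C1s1 has a pair of overlapping ones. Motifs were searched on both strands among 32851 windows of the same length. The C/EBP motif TTGCNNAA was in 3 of the 7 windows, those of C3, C1ra and the upstream C1s1 start, and in 10.8% of all windows. The gamma-activated site TTCNNNGAA, a STAT motif, was in C1ra and in 8.3% of all windows. The core of the interferon-stimulated response element (GAAA, then 2 bases of any kind, then GAAA) was in Cd59a and in 3.44% of all windows. A DR1 element of PPARg type (AGGTCA, 1 base of any kind, AGGTCA) was in 0 of the 7 and in 0.0396% of all windows, and in a looser form, with any base in place of each T, it was in 0 of the 7 and in 0.381%. An NF-kB motif was also in 0 of the 7. Its forms were GGGA and TTCC with 2 bases of any kind between (1.47% of windows) and GGG and TTTCC with 2 between (1.63%). A match is a description of these letters only, every strict DR1 match is also a loose one, and 1 sequence can match both NF-kB forms.

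Serping1 encodes C1 inhibitor, the serpin that inactivates C1r, C1s and the lectin pathway proteases. It lay on chromosome 2 from 84605517 to 84615586 on the minus strand, as 1 transcript of 8 exons. Serping1 was at 1.19 FPKM in deficient cells (0.63 to 1.75) and 2.80 FPKM in floxed cells (1.92 to 3.67). Both values are low, but the bounds did not overlap. The log2 fold was -0.79 as deposited and -1.65 relative to the median, the lowest of the 5, and 5.67% of kept genes and loci had a lower fold. Per length, Serping1 RNA was 0.120 of C1ra RNA in deficient cells and 0.739 of it in floxed cells. Against C1s1 RNA it was 0.0584 in deficient cells and 0.0995 in floxed cells.

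Cd59a encodes the membrane-anchored protein that blocks assembly of the lytic pore. It had the highest level of the 9 genes in the deficient library. The gene lay on chromosome 2 from 103935958 to 103955508 on the plus strand, and summed to 81.9 FPKM in deficient cells and 23.3 FPKM in floxed cells. The log2 fold was 1.77 as deposited and 0.92 relative to the median, and 88% of kept genes and loci had a lower fold. Its main transcript, of 4 exons, was at 42.0 FPKM in deficient cells (20.95 to 63.0) and 21.95 FPKM in floxed cells (19.3 to 24.6), bounds that overlap. A 3-exon transcript, with 1 intron that matched no annotated Cd59a intron, was at 2.44 FPKM in the deficient library (1.30 to 3.57), and in the floxed library its upper bound was 0.157 FPKM.

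Much of the Cd59a difference came from 1 unusual transcript. It joins the first exons of Cd59b, the near copy 10843 bases upstream, to the last exons of Cd59a. Its first intron, of 8938 bases, has the length of an annotated Cd59b intron, its last, of 3130 bases, that of an annotated Cd59a intron, and the joining intron of 31803 bases matched neither gene. This joined transcript was at 35.7 FPKM in deficient cells (31.8 to 39.6) and 0.48 FPKM in floxed cells (0 to 1.0). It held 43.6% of the Cd59a sum in deficient cells and 2.06% in floxed cells. Without it the relative log2 fold of Cd59a was 0.13, a choice made after the values were seen. Cd59b alone was at 0.54 FPKM in the deficient library and listed at 0 in the floxed library. The 79-base exon that Cd59b and Cd59a have in the same place is 97.5% identical between them, so reads there can be placed in either gene and the values are uncertain.

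C1s1 had joined transcripts as well, with more of their RNA in the floxed library. A pair of transcripts joined C1s1 exons to exons of C1s2, a near copy 82265 bases away. Together they were at 3.40 FPKM in deficient cells (16.7% of the C1s1 sum) and 10.2 FPKM in floxed cells (36.5%). Most of that difference was the 12-exon one, at 6.52 FPKM in the floxed library (2.49 to 10.55), where its upper bound in the deficient library was 0.0849 FPKM. Without both the relative log2 fold of C1s1 was -0.93, short of 2-fold. C1s2 alone was at 0.28 FPKM in deficient cells and 0.53 FPKM in floxed cells. Over internal exons of equal length C1s1 and C1s2 were 97.9% identical (1265 bases) and C1ra and C1rb 99.4% (1343 bases). The authors' treatment of reads that fit several places is not given in the sources used here.

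**Figure D2:**
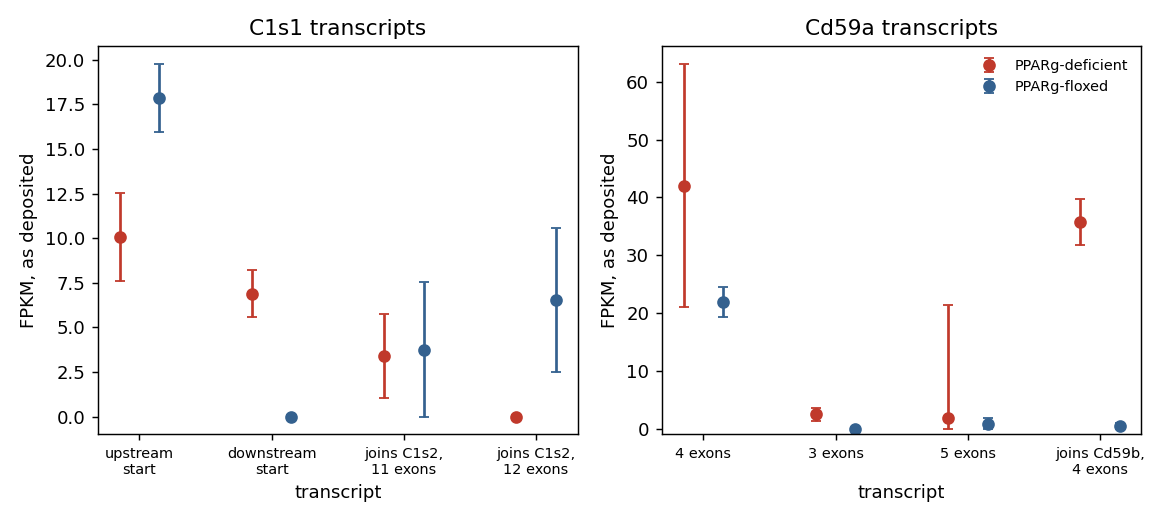
Points give FPKM, as deposited, of each transcript of C1s1 (left panel) and Cd59a (right panel) in the PPARg-deficient library (red) and the PPARg-floxed library (blue), 1 library each, and bars give the deposited bounds. The downstream C1s1 start (6.89 FPKM) and the Cd59a transcript joined to Cd59b (35.7 FPKM) stand out in the deficient library, where the floxed library is near 0.

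C1qbp encodes a protein that binds the globular heads of C1q and resides mainly in mitochondria. It lay on chromosome 11 from 70791348 to 70796528 on the minus strand, as 1 transcript of 6 exons. C1qbp was at 4.28 FPKM in deficient cells (2.76 to 5.81) and 1.29 FPKM in floxed cells (0.46 to 2.11). The log2 fold was 1.21 as deposited and 0.35 relative to the median, and 68.8% of kept genes and loci had a lower fold. C1qbp was higher as deposited, with bounds that did not overlap, and ranked with C1ra once centred. Its exons overlap those of Rpain on the other strand by 397 bases. Rpain was at 24.2 FPKM in deficient cells and 8.42 FPKM in floxed cells, and the handling of strand is not given in the sources used here, so reads in the overlap cannot be told apart.

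The remaining 4 genes were under 1 FPKM in both libraries, and no fold is given for them. C3 (chromosome 17, 57343396 to 57367559, minus strand, 41 exons), the component on which all pathways converge, was listed at 0 in deficient cells and at 0.09 FPKM in floxed cells, where 521 read bases lay on a transcript of 5133 bases. C4b (chromosome 17, 34865326 to 34880842, minus strand, 41 exons), which encodes C4, was at 0.06 FPKM in deficient cells and 0.07 FPKM in floxed cells. Its copy C4a, 96.3% identical over 4685 bases, was listed at 0 in deficient cells and at 0.01 FPKM in floxed cells. Cfb (chromosome 17, 34993319 to 34999459, minus strand, 18 exons) encodes factor B, the protease of the alternative pathway. It was listed at 0 in deficient cells and at 0.13 FPKM in floxed cells. Cd55 (chromosome 1, 132335607 to 132359317, minus strand, 10 exons) encodes decay-accelerating factor, which takes apart C3 convertases on the cell surface. It was listed at 0 in deficient cells and at 0.19 FPKM in floxed cells. Differences between the libraries in these 4 genes were not detectable at this depth. A listed 0 need not mean that RNA is absent, and whether any is a failed estimate was not tested. Among kept genes and loci, 15 with at least 5 FPKM in the floxed library were listed at 0 in the deficient library, and 18 the reverse.

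Of the 9 genes C4b and Cfb share a cluster on chromosome 17 with C4a and C2. C2 encodes the C4 partner cleaved by C1s and ends 87 bases before the start of Cfb. It was listed at 0 in the deficient library and was at 1.94 FPKM in the floxed library (1.35 to 2.54), so no fold is given, although C2 stays in the counts of lower genes. In the deficient library C4b was the only one of these 4 genes listed above 0.

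The rest of the complement system was read from a list of 47 other genes. Of these 44 were matched, 9 passed the filter and 35 stayed under 1 FPKM in both libraries. Cpn2, C3ar1 and Cd93 were not matched. Of the 9, C2 and C8g passed the filter in the floxed library only and Clu and Itgb2 in the deficient library only, so that their direction follows in part from the filter. Relative to the median, Masp1 and Cr1l were higher by 2-fold or more and C2, C8g and Calr lower, against 10.3% of all kept genes and loci higher and 11.8% lower. C2 is listed at 0 in the deficient library, so its place in that count rests on the pseudocount. As deposited, Masp1, Cr1l and Colec12 were higher, against 41.9% of all, and C2 was lower, against 4.63%.

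In the classical pathway the 3 C1q chain genes C1qa, C1qb and C1qc were listed at 0 in both libraries. C1q is made mainly by macrophages, and of their markers Ptprc, Adgre1, Spi1 and Tyrobp were listed at 0 in both libraries. Whether these markers bear on the C1q values was not tested. Lyz2, given above, was higher in deficient cells, with a relative log2 fold of 3.17. Cd14 was at 12.5 FPKM in deficient cells and 4.52 FPKM in floxed cells, and Cd68 at 2.10 FPKM in deficient cells and 1.56 FPKM in floxed cells. C1rb, the near copy of C1ra, was at 2.62 FPKM in deficient cells and 1.11 FPKM in floxed cells (relative log2 fold -0.08). In the lectin pathway, 2 of 9 genes passed the filter. Masp1, which encodes MASP-1 and, by other splicing, MASP-3, was at 69.9 FPKM in deficient cells and 12.8 FPKM in floxed cells, a relative log2 fold of 1.51 (2.36 as deposited). Its 11-exon transcript held nearly all of it, with 69.7 FPKM in deficient cells (67.3 to 72.1) and 12.8 FPKM in floxed cells (11.8 to 13.8). The 16-exon transcript, which runs further downstream, was at 0.24 FPKM in deficient cells (0 to 0.51). In the floxed library its upper bound was 0.087 FPKM. Which of these proteins each transcript encodes was not assigned. Colec12, a membrane collectin gene, was at 18.7 FPKM in deficient cells and 6.35 FPKM in floxed cells (relative log2 fold 0.56). The recognition genes Mbl1, Fcna and Fcnb were listed at 0 in both libraries.

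In the alternative and terminal pathways hardly any component was present. Cfd and Cfp were under 1 FPKM in both libraries. Of 7 terminal genes, 5 were listed at 0 in both, and C8g was at 0.51 FPKM in deficient cells and 1.06 FPKM in floxed cells, with overlapping bounds.

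Among the other membrane regulators 1 of 6 passed the filter. Cr1l, the gene of the rodent surface regulator Crry, was at 51.1 FPKM in deficient cells and 13.2 FPKM in floxed cells, a relative log2 fold of 1.01 (1.87 as deposited). Clu, which encodes the soluble regulator clusterin, was at 1.53 FPKM in deficient cells and 0.34 FPKM in floxed cells (relative log2 fold 0.06). Cd46 and Cd55b were listed at 0 in both.

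Among receptors, Calr was at 451 FPKM in deficient cells (441 to 462) and 642 FPKM in floxed cells (629 to 655), a relative log2 fold of -1.37 (-0.51 as deposited). It encodes calreticulin, an endoplasmic reticulum chaperone that has also been described as a C1q receptor. Itgb2, the shared chain of complement receptors 3 and 4, was at 1.08 FPKM in deficient cells and 0.47 FPKM in floxed cells (relative log2 fold -0.36). Its partners Itgam and Itgax were listed at 0 in both libraries, as were Cr2 and Vsig4. C5ar1 and C5ar2 stayed under 0.1 FPKM in both.

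**Figure D3:**
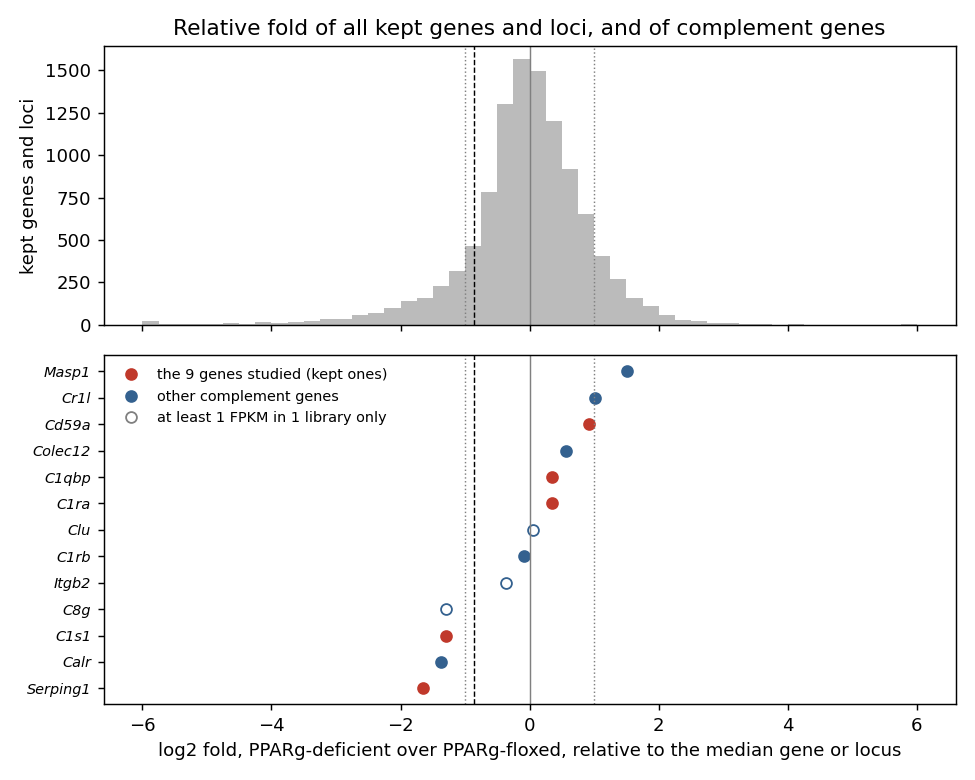
The upper panel counts 10747 kept genes and loci by log2 fold, PPARg-deficient over PPARg-floxed, relative to their median (values past 6 in either direction are in the end bars). The lower panel places the kept complement genes on the same axis, the 5 studied genes in red and others in blue, open where only 1 library reached 1 FPKM, without C2, which is listed at 0 in the deficient library. Dotted lines mark 2-fold and the dashed line marks no difference as deposited, and Serping1 at -1.65 and Masp1 at 1.51 are the outermost.

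Across the scalings, filters and transcript choices tried, C1s1 and Serping1 stayed below 0 while the sizes varied. C1s1 was below 0 in 10 of 10 alternatives (-1.64 to -0.45) and Serping1 in 9 of 9 (-2.31 to -0.77). C1ra lay between 0.12 and 1.19, Cd59a between 0.01 and 1.77 and C1qbp between 0.13 and 1.27. The 0.01 for Cd59a, with whole-chain transcripts only, is no difference. The bounds of each gene's main transcript give a half-width for the relative log2 fold, which covers estimation within the libraries only. It was 0.47 for C1s1 and 0.72 for Serping1, less than the sizes of their relative folds. For C1ra it was 0.42, for Cd59a 0.94 and for C1qbp 0.98, more than their relative folds. The relative direction of these 3 genes is thus not established even within these libraries. For C1s1 and Cd59a, each summed over several transcripts, the half-width leaves out the other transcripts. With 1 library per genotype it establishes no direction for any gene. Masp1 was at least 2-fold higher in 10 of 10 alternatives (1.29 to 2.36). Cr1l was at least 2-fold higher in 7 of 10 (0.80 to 1.87).

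**Figure D4:**
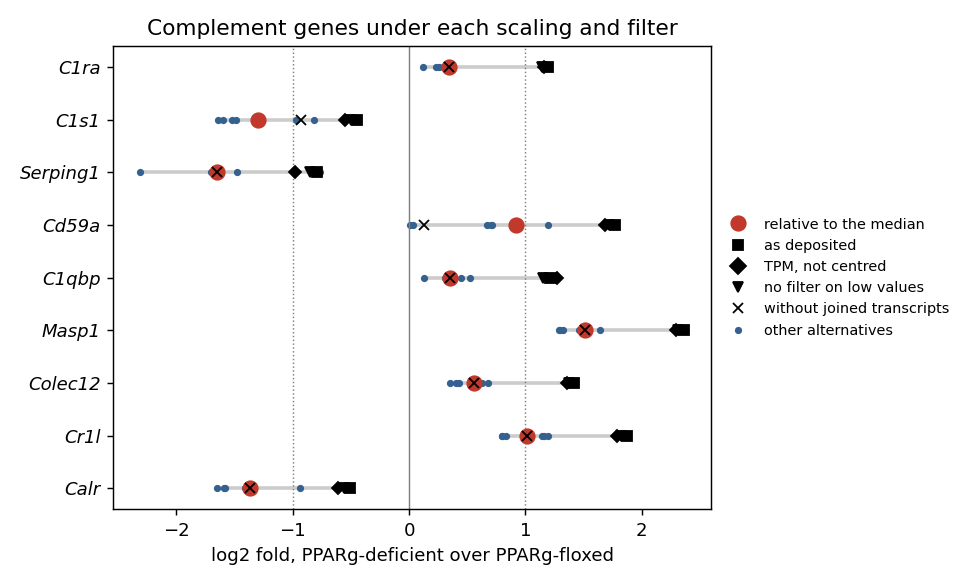
Each row shows a complement gene and its log2 fold, PPARg-deficient over PPARg-floxed, relative to the median (red circle) and under each alternative (black marks for the 4 named in the legend, small blue points for the others), with a grey line over the range and dotted lines at 2-fold. C1s1, Serping1 and Calr stay below 0 and the other 6 genes stay above it, while Cd59a reaches 0.01 at its lowest.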

How the data were processed

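RNA from 2 libraries, 1 per genotype as labelled, was analysed. The authors deposited, per the file contents, FPKM per transcript with lower and upper bounds and read coverage in a text attribute field. Per the submitters' processing notes, the tools were Cufflinks 2.0.2, Cuffdiff 2.0.2 and TopHat2 2.0.5 on mm9, in roles and an order that are not stated. The sources used here give no annotation, filter or strand handling. FPKM depends on each library's own total.

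The files hold no gene symbols. Loci were named by matching ordered intron and internal exon lengths, on the same chromosome and strand, to GENCODE M21, which is on a later build. No coordinate was converted. Of 25707 loci 19030 were named, 17730 by a whole chain of at least 2 introns, 353 by a run of 3 lengths and 947 by a single intron with a terminal exon. On wrong chromosomes 0 of 36924 chains matched whole, 40 matched by a run and 2 of 2883 single introns matched. A transcript with its own match to 1 gene was given to that gene, otherwise to its locus, and FPKM was summed per gene. This split 138 transcripts from the gene of their merged locus.

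Genes and unnamed loci were kept if either library reached 1 FPKM and the longest transcript had 300 nt or more. The fold is log2 of FPKM plus 1, deficient over floxed, minus the median over kept genes and loci. It understates changes of low genes. Calls are by size, at 2-fold. Read bases are coverage times length. Near copies were compared base by base over internal exons of equal length, using GENCODE M21 transcripts. The genes and lists were chosen with earlier results of these data known. Beside the 9 genes, other complement genes with at least 5 FPKM were named with fuller values and the others that passed the filter in short. Genes under the filter are counted, and only some are named. 1 more gene was left out of the lists and is not reported here. Only the fold calculation was tested on simulated data, with large known folds set in well expressed genes. Naming, summing and filtering were not simulated. Alternatives were as-deposited values, upper-quartile scaling, TPM over transcripts of at least 300 nt, a filter of 5 FPKM or none, a pseudocount of 0.1 or 5 FPKM, the most abundant transcript, whole-chain transcripts, calls at 1.5- and 4-fold and non-overlapping bounds. Leaving out joined transcripts was chosen after seeing the data. Python 3.11.15 with numpy 2.4.6, pandas 2.3.3 and matplotlib 3.10.9 was used.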

Additional observations from a re-analysis of the deposited data

How the results depend on the processing

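Of the 9 genes, 2 were at least 2-fold lower and 0 at least 2-fold higher relative to the median. The lower count was 0 as deposited, with TPM, with a pseudocount of 5 FPKM, with no filter and at 4-fold, and it was 1 with a filter of 5 FPKM, with whole-chain transcripts only and without joined transcripts. The filter removed Serping1, and the other 2 settings left C1s1 just short of 2-fold, at -0.97 and -0.93. The higher count was 3 as deposited, with TPM and with no filter. It was 1 with a pseudocount of 5 FPKM and at 1.5-fold, each time Cd59a with its joined transcript included. Of the other complement genes 3 were lower and 2 higher, and of the lower ones C2 and C8g reached 1 FPKM in the floxed library only, C2 from a listed 0 in the deficient library. Their lower count was 1 as deposited, with TPM, with no filter, with a filter of 5 FPKM and at 4-fold, and 0 with a pseudocount of 5 FPKM. Their higher count was 1 with upper-quartile scaling, a pseudocount of 0.1 FPKM and a filter of 5 FPKM, 5 with TPM and 0 at 4-fold. Among all kept genes and loci 1265 were lower and 1109 higher. Those lower numbered 498 as deposited, 642 with TPM, 430 with a pseudocount of 5 FPKM, 529 with no filter, 2197 at 1.5-fold and 420 at 4-fold. Those higher numbered 4505 as deposited, 4634 with TPM, 1721 with a pseudocount of 0.1 FPKM, 4196 with no filter, 731 with a filter of 5 FPKM, 2355 at 1.5-fold and 163 at 4-fold. As-deposited values and TPM were not centred, and with no filter the median is set mostly by genes near 0, so these settings keep the shift between the libraries. No paired analysis was possible because each genotype has 1 library, and for the same reason no replicate could be left out. Fragment numbers are not known, so the precision of genes near 1 FPKM, such as Serping1 and C1qbp, rests on the deposited bounds alone.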
